A study of Mus musculus with 29 samples.

Results

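The levels of 10 genes of the Yap and Taz pathway were followed through mouse lung development. They were the coactivators Yap1 and Wwtr1, the DNA-binding partners Tead1, Tead2, Tead3 and Tead4, the target genes Ccn1 (also Cyr61), Ccn2 (also Ctgf) and Ankrd1, and Lats2, a kinase that restrains the coactivators. They were taken by their NCBI gene IDs, 10 of the 22779 gene IDs in the deposited expression matrix, and each of the 10 stood on a single line. The samples were alveolar septa, the walls between the air spaces of the lung, cut by laser capture microdissection from frozen lungs of 29 wild type C57BL/6 mice. There were 2 animals at each of 14 ages and 1 at P28, and each animal gave its own RNA library. The ages on the labels were gathered into 4 stage groups. The prenatal group held E16.5 and E18.5 (4 animals), the postnatal saccular group P0.5 and P1 with P1.5 and P2.5 (8 animals), the early alveolar group P4, P5, P7 and P10 (8 animals) and the late alveolar group P13.5 and P15 with P19, P23 and P28 (9 animals). The E18.5 age rests on the labels of 2 animals, and the study's own list of ages leaves it out. No animal was treated, and the comparison is one of age. Both sexes were used, unevenly over the ages. Levels are FPKM, sequenced fragments for each kilobase of a transcript, scaled to the mapped total of a library, so levels of different genes are set side by side per length.

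In the Hippo pathway, the kinases Stk3 and Stk4 activate Lats1 and Lats2, which phosphorylate Yap and Taz (the protein of Wwtr1) and so keep them out of the nucleus. When cells are stretched or spread, Yap and Taz enter the nucleus, bind Tead proteins and switch on genes such as Ccn1, Ccn2 and Ankrd1, and also Lats2, which closes a negative feedback loop. In the lung, air breathing begins at birth and the septa are formed in the weeks that follow, and Yap and Taz are known for roles in the growth and differentiation of the alveolar epithelium. These data measure RNA, not the phosphorylation or the place of the proteins.

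The septal RNA held markers of alveolar type 1 and type 2 cells, endothelium and mesenchyme, with every gene of these lists detected in every stage group. The summed FPKM of 6 type 2 markers ranged from 2209 to 22850 per library. Markers of other tissues were detected too, and 8 heart muscle markers summed to between 10.2 and 2617 FPKM, and 6 airway markers to between 202 and 5815. The libraries P10a, P19d and P19f had 416, 578 and 242 of 8623 commonly expressed genes listed at 0, against 1 to 112 in the other 26. In 14 of the 29 libraries the RNA of sex-linked genes went against the sex on the label, among them both animals of E18.5, P0.5, P4, P7 and P13.5. Sex was not used in any comparison, and ages were taken from the labels as they stand. By the RNA of sex-linked genes the P2.5, P7, P13.5 and P23 animals were all male. The P1.5, P10, P15, P19 and P28 animals were all female, so age and sex cannot be told apart at these ages. The stage and age tests were repeated without the 14 libraries against their label. The steps into and out of E18.5 could not be, since no E18.5 animal is left, and rest on those libraries alone. In bulk tissue, fewer cells of a type and less RNA per cell cannot be told apart.

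Promoter sequences show where the Tead binding letters lie in these genes. Tead proteins bind the MCAT element, whose core reads GGAATG on one strand and CATTCC on the other. Of the 10 genes, 7 matched a RefSeq promoter (GRCm38.p6, 250 bases before to 50 after the transcription start), with 11 promoters among them. The letters GGAATG, searched on both strands, were found in 8 of these 11 promoters and in 6 of the 7 genes, while 14.7% of all 32851 promoters of this length and 12.7% of the promoters of tested genes held them. Both percentages count single promoters, so they stand beside the 8 of 11 and not beside the 6 of 7 genes. Some of the 10 genes were chosen as known targets, and the difference was not tested. A match is a run of letters, not a measured binding site. Shown are the promoters of the 2 target genes with the most variable levels, of Lats2, the gene with the smallest p for change with age, and of Tead2, the gene that fell in the late alveolar group, each 5′ to 3′ on the gene's own strand with the matches in capitals.
Ccn1, chr3:145649936-145650235, minus strand: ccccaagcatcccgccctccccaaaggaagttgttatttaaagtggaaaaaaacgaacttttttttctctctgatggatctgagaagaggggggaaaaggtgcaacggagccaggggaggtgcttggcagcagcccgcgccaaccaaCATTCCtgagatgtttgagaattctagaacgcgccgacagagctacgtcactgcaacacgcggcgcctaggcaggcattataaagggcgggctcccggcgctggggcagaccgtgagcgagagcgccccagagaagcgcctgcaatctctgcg
Ankrd1, chr19:36119795-36120094, minus strand: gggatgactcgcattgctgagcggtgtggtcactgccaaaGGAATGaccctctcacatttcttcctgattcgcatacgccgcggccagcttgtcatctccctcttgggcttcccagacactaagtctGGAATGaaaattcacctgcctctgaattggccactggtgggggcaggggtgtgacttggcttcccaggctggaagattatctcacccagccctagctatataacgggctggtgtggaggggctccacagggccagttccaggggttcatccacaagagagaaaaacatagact
Lats2, first of 2 promoters, chr14:57746074-57746373, minus strand: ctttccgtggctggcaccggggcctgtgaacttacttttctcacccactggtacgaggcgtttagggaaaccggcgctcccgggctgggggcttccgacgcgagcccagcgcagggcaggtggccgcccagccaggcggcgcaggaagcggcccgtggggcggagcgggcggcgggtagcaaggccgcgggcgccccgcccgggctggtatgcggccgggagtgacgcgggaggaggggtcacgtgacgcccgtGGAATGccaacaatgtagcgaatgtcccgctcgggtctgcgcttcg
Tead2, chr7:45215542-45215841, plus strand: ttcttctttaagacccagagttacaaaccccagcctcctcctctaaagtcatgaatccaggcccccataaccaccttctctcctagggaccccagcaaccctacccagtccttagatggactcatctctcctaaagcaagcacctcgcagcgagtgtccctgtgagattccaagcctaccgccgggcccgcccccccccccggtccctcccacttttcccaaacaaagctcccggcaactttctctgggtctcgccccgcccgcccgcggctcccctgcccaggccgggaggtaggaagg
The Ccn1 promoter held 1 match, in the CATTCC orientation, 103 bases before the start. The Ankrd1 promoter held 2, beginning 210 and 123 bases before the start. In the Lats2 promoter the match began at base 5 after the start, and the second Lats2 promoter and the Tead2 promoter held none in this window. Yap1 held a single match, 141 bases before the start. The 2 Wwtr1 promoters overlap and hold the same site, 136 and 170 bases before their starts, which the count of 8 takes in both. Of the 3 Tead3 promoters the first held 1 match, the second 3 and the third none.

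**Figure D1:**
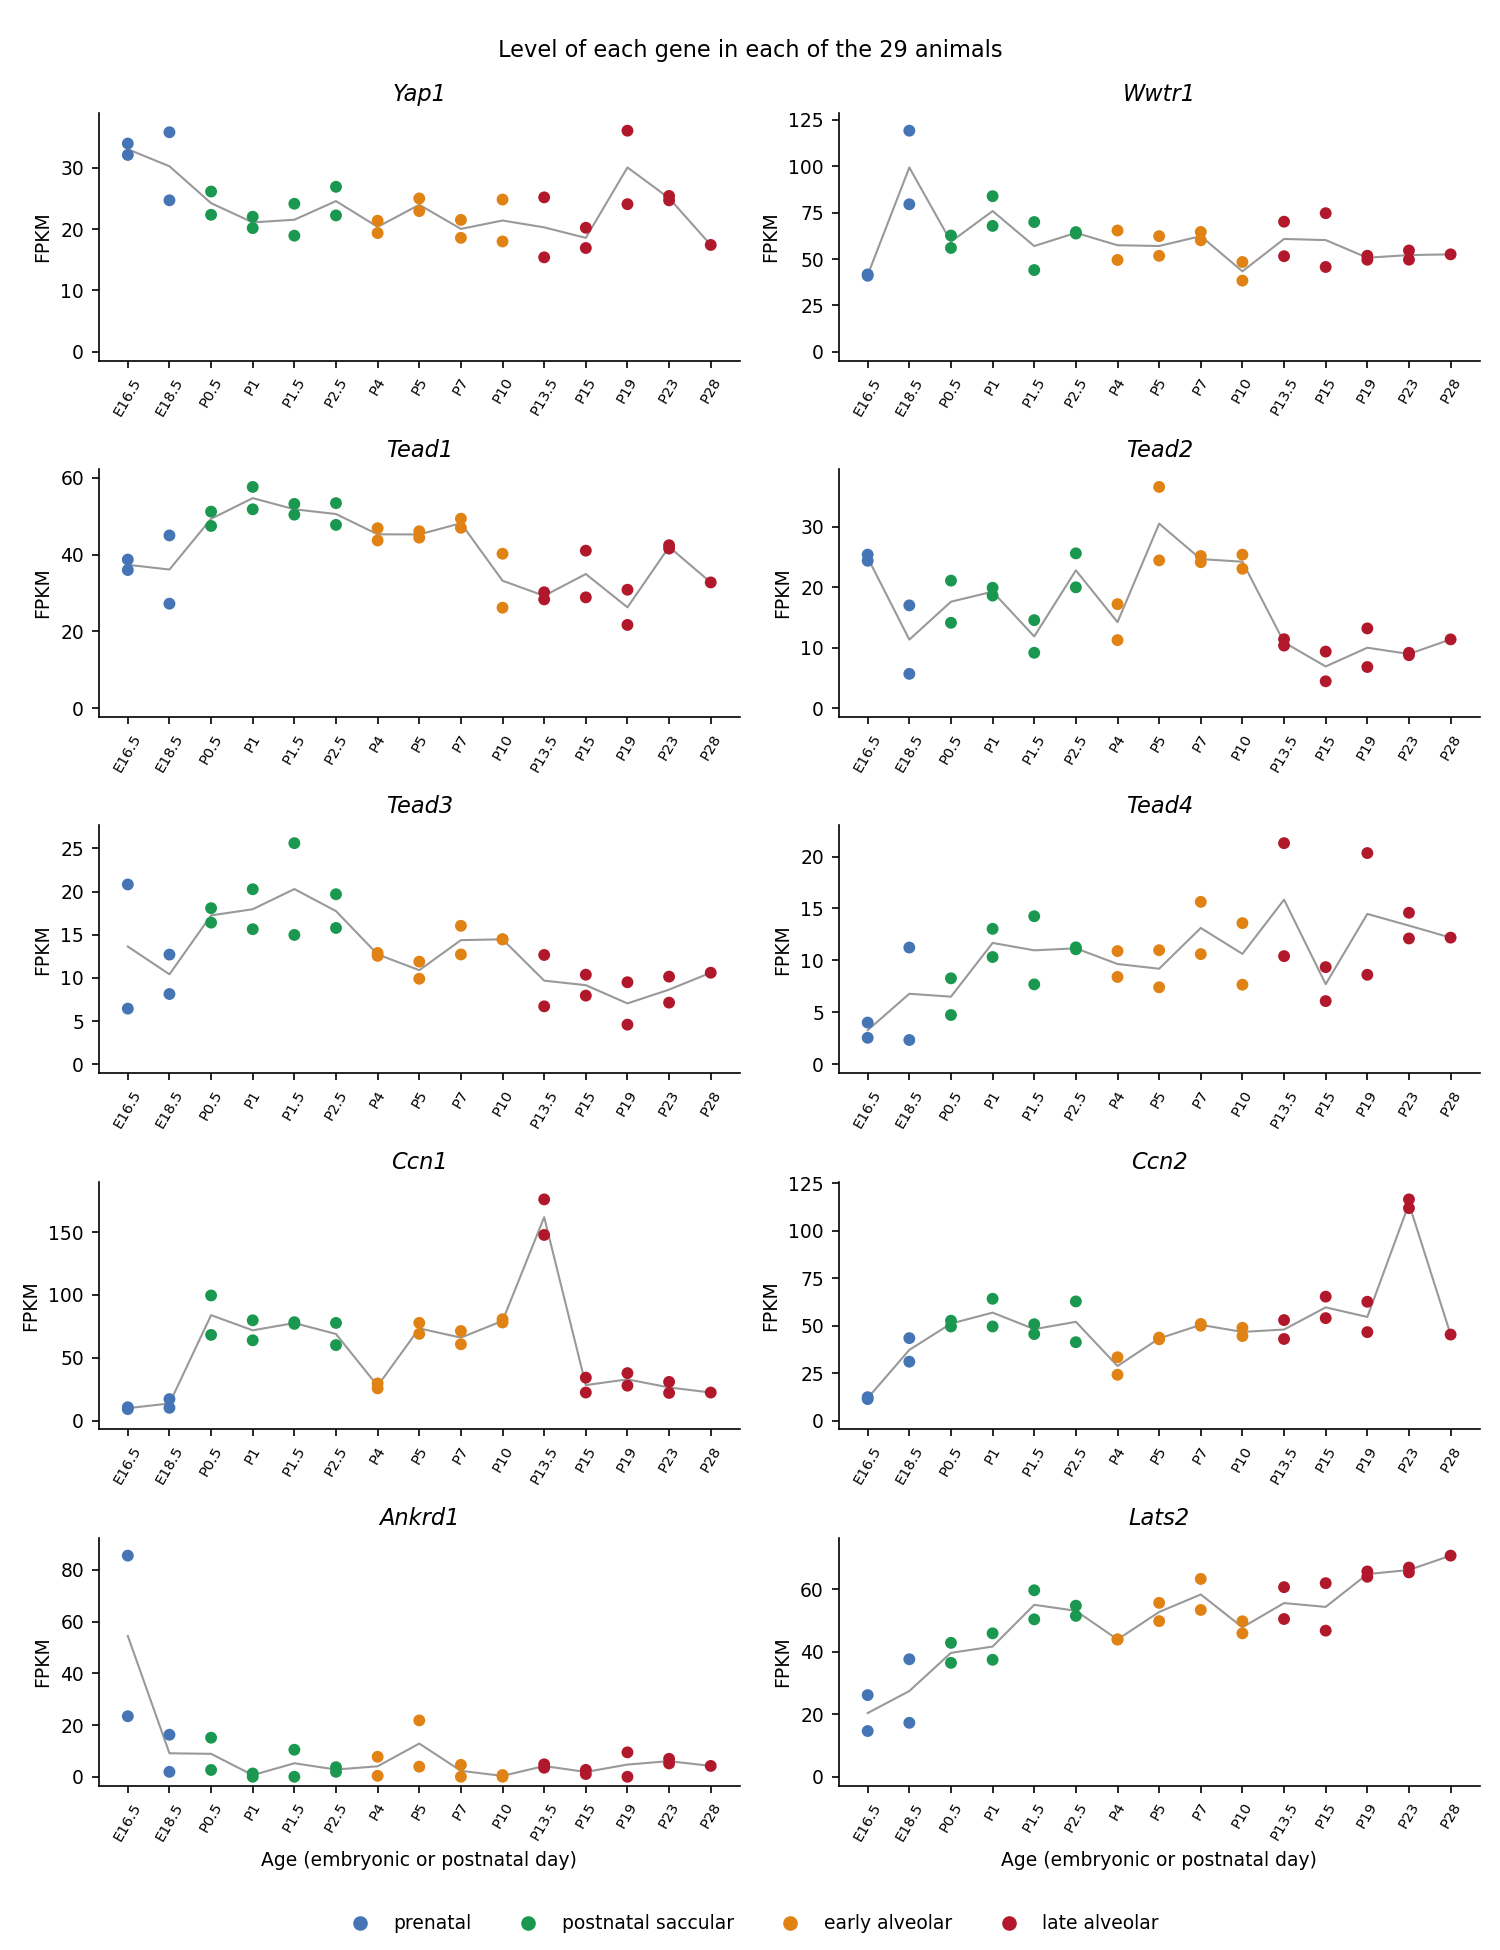
FPKM of each of the 10 genes (y axis) in each of the 29 animals by age (x axis, categories in order of age), with 1 point per animal coloured by stage group and a grey line through the mean of each age. Ccn1 sits at 9.11 to 17.1 FPKM before birth and at 60.1 to 99.6 in the postnatal saccular group, and Lats2 rises from 14.6 FPKM in an E16.5 animal to 70.8 at P28.

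The comparison across birth was the one in which most of the 10 genes changed. In limma's test on log2(FPKM + 1), with Benjamini-Hochberg adjustment over 14616 genes and a threshold of 0.05, 6 of the 10 genes were higher in the postnatal saccular group than before birth (Ccn1, Ccn2, Lats2, Tead1, Tead3 and Tead4) and 0 were lower. Of all tested genes, 9.11% were called higher and 6.81% lower in this comparison. The median log2 fold change of the 10 genes was 0.59, against -0.004 over all genes. At an unadjusted p under 0.05 there were 8 genes, the further ones being Yap1 and Ankrd1, both with lower values after birth. The coactivators themselves, Yap1 and Wwtr1, did not pass the test. Leaving out E16.5-9 or E18.5-4 took the 6 higher genes to 3, and with the E18.5 animals as the whole prenatal group 2 were left, Ccn1 and Lats2. Over all genes the calls higher fell too in that last fit, from 1332 of 14616 to 585 of 14448. Without the libraries that went against their sex label, which leaves no E18.5 and no P0.5 animal, 5 were higher and 1 was lower. The 5 were Ccn1, Ccn2, Lats2, Tead4 and, newly called, Wwtr1. Tead1 and Tead3 were lost in that fit (limma adjusted p 0.287 and 0.420), and the lower gene was Ankrd1. There, 1097 of all 13803 genes were higher and 876 lower. Without P10a, P19d and P19f, 6 were higher and 2 lower, where 1595 of all 14534 genes were higher and 1359 lower.

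**Figure D2:**
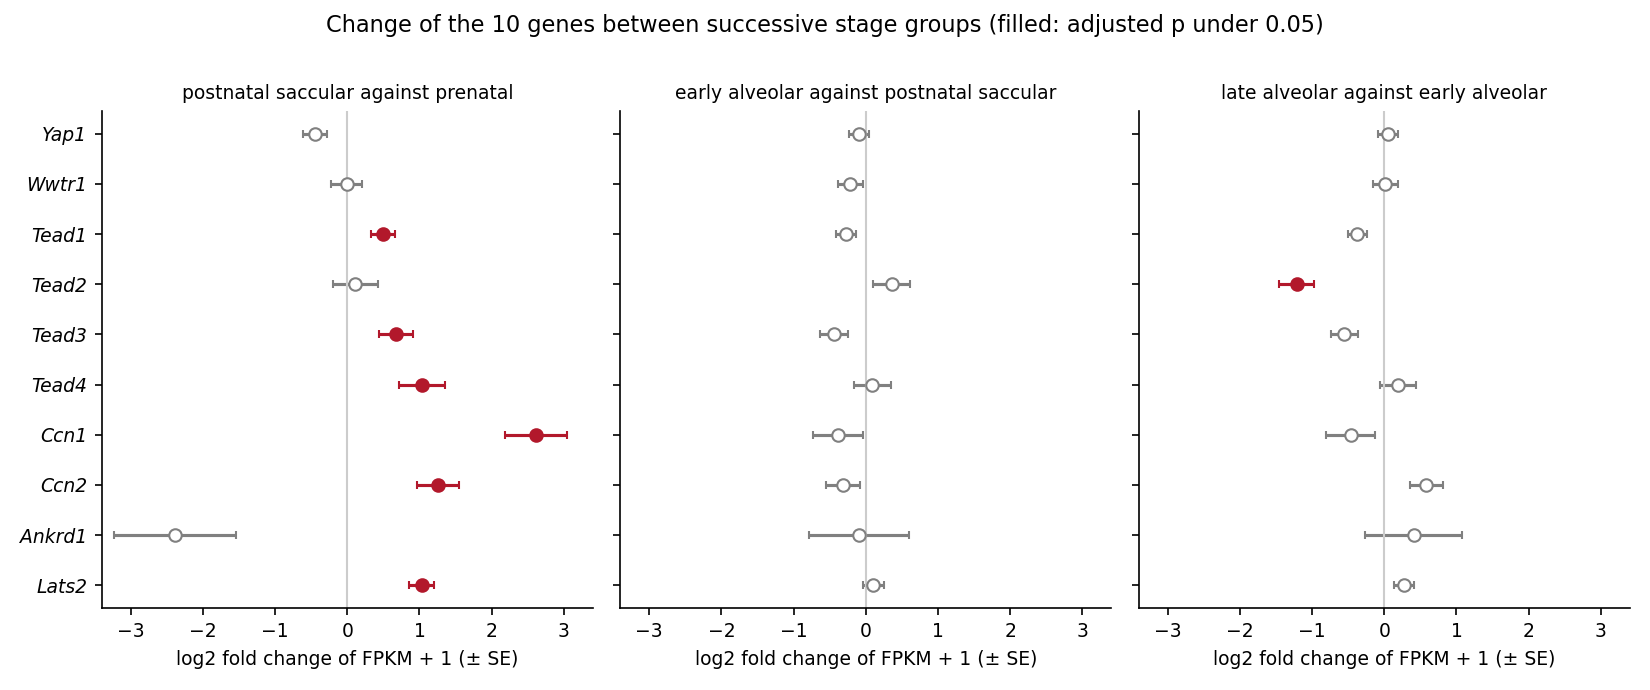
Log2 fold change of FPKM + 1 (x axis, with the standard error) of the 10 genes (y axis) in the 3 comparisons between successive stage groups. Filled red points have an adjusted p under 0.05: 6 genes to the right across birth, none between the saccular and early alveolar groups, and Tead2, to the left, in the late alveolar group.

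Ccn1, which encodes a matrix protein that binds integrins, had the largest change of the 6 genes called across birth. Its level was 10.6 and 9.11 FPKM in the E16.5 animals and 10.1 and 17.1 in the E18.5 animals. In the 8 postnatal saccular animals it ran from 60.1 through a median of 77.3 to 99.6 FPKM. The groups did not overlap, and the log2 fold change was 2.61 (SE 0.43, limma adjusted p 0.000096), which is 6.12-fold on the FPKM + 1 scale. Without the libraries against their sex label it was 2.71 (adjusted p 2.184e-06). The step stood between E18.5 and P0.5, where the 2 newborns had 99.6 and 68.2 FPKM. In a limma fit of the 15 ages, Ccn1 rose by 2.56 on the log2 scale from E18.5 to P0.5 (SE 0.27, adjusted p 0.000104), a step in which all 4 libraries went against their sex label. It was the 1 gene of the 10 called higher at that step, with 0 lower, where 0.753% of all genes were higher and 0.356% lower, and 3 of the 10 had an unadjusted p under 0.05. Leaving out E18.5-3 added Lats2 as a second gene at that step (log2 fold change 1.15, adjusted p 0.0486).

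After birth Ccn1 was low at P4 and high at P13.5, in both animals of each age. All 4 of these libraries went against their sex label. At P4 the animals had 25.6 and 29.6 FPKM, while the other 6 early alveolar animals had 60.7 to 80.7. At P13.5 they had 176 and 148 FPKM, the highest levels of the series, and the other 7 late alveolar animals had 21.97 to 37.8. Between the late and the early alveolar group Ccn1 did not pass the test (log2 fold change -0.47, SE 0.34, limma adjusted p 0.428), but it was called lower in 3 of 14 other settings. The log2 fold change was -1.49 without the libraries against their sex label, which takes out both P4 and both P13.5 animals (adjusted p 0.0032). With 15 age groups in the fit it was -0.55 (adjusted p 0.00812). That fit gives each age its own mean, so its p measures the spread between animals of an age. The spread between the ages of a group, wide for Ccn1, is not in it. Without P13.5, a choice made after the data were seen, the log2 fold change was -1.02 (adjusted p 0.00186).

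Ccn1 is itself an immediate early gene, one that cells transcribe within minutes of a stimulus, and its level moved with those of other such genes. The summed FPKM of 12 immediate early genes, among them Fos, Egr1 and Nr4a1, was 69.4 to 161 before birth, 213 to 362 in the saccular group, 144 and 181 at P4, 283 to 386 in the other early alveolar animals, 600 and 587 at P13.5 and 260 to 363 in the other late alveolar animals. After birth the sum was lowest at P4 and highest at P13.5, the ages of the dip and the peak of Ccn1, while from P15 on Ccn1 was low and the sum was not. Over the 29 libraries, on log2(FPKM + 1), Pearson's r of Ccn1 with this sum was 0.805 and Spearman's rho 0.669 (permutation tests, p 1e-05, the smallest that 100000 permutations can give, and 8e-05, adjusted p 0.000433 and 0.00293 over 130 relations of 10 genes with 13 marker lists). Without the 2 libraries farthest from the median, the E16.5 animals, r was 0.726. The permutations shuffled libraries across ages and counted the 2 animals of an age as separate. They do not take age out, so a small p does not set a shared course with age apart from other links. This holds for every marker relation given below. In the 25 postnatal libraries r was 0.584 (adjusted p 0.0250) and rho 0.488 (adjusted p 0.130). Across birth, 8 of the 12 immediate early genes were called higher and 0 lower, where 9.11% of all genes were higher and 6.81% lower. Dusp1 was at 2.85, Jun at 1.65, Junb at 1.91 and Fos at 2.29 on the log2 scale. From E18.5 to P0.5, where 0.753% of all genes were higher, Egr1, Nr4a1 and Dusp1 were called higher with Ccn1. The part of a general early response in the Ccn1 values was not tested.

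Ccn2, which encodes a matrix protein of the same CCN family, rose before birth, and its further rise to P0.5 did not pass the test. It stood at 11.3 and 12.3 FPKM at E16.5, 43.4 and 31.0 at E18.5 and 52.6 and 49.6 at P0.5. E18.5 exceeded E16.5 by 1.56 on the log2 scale (SE 0.24, limma adjusted p 0.000497), and P0.5 exceeded E18.5 by 0.46 (SE 0.24, adjusted p 0.389). In the stage comparison Ccn2 was higher in the saccular group (log2 fold change 1.26, SE 0.29, adjusted p 0.00275), where it ran from 41.3 through a median of 50.2 to 64.2 FPKM and overlapped the prenatal group at 1 E18.5 animal. Against the E18.5 animals only, the saccular value was 0.48 (adjusted p 0.409). From E16.5 to E18.5, 2 of the 10 genes were called higher, Ccn2 and Wwtr1, and 0 lower, where 2.52% of all genes were higher and 2.00% lower. Both E18.5 libraries went against their sex label. Cell markers moved over the same step. The sum of the alveolar type 1 markers was 269 and 253 FPKM at E16.5 and 993 and 887 at E18.5, that of the endothelial markers 280 and 353, then 696 and 618, and that of the heart muscle markers 1329 and 2617, then 50.9 and 140. Their part in the rise of Ccn2 and Wwtr1 was not tested. Tead2, with a lower value, was the third of the 10 with an unadjusted p under 0.05 at that step, and it was called lower when E18.5-3 was left out (log2 fold change -1.96, adjusted p 0.0192).

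Later Ccn2 was low at P4, as Ccn1 was, and high at P23, where Ccn1 was not. The P4 animals had 24.1 and 33.4 FPKM, the lowest after birth, and the early alveolar median was 44.1. The P23 animals had 117 and 112 FPKM, the highest of the series, while the P28 animal was back at 45.3. The other 7 late alveolar animals lay between 43.0 and 65.3 FPKM. The late alveolar group was higher than the early by 0.58 on the log2 scale (SE 0.23), which did not pass the test (limma adjusted p 0.0975). The 2 CCN genes peaked at different ages, Ccn1 at P13.5 and Ccn2 at P23. By RNA the animals of both ages were male and the other late alveolar animals female. The ratio of Ccn1 to Ccn2 FPKM ran from 0.188 in a P23 animal to 4.10 in a P13.5 animal within the late alveolar group. Of the other CCN genes, 3 of 4 were tested, and only Ccn4 was called in a stage comparison, with a late alveolar log2 fold change of -1.37. In that comparison 7.47% of all genes were called lower and 3.89% higher.

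Ankrd1, which encodes an ankyrin repeat protein abundant in heart muscle and induced by Yap in many cells, behaved unlike the CCN genes. Its level was 23.4 and 85.5 FPKM at E16.5 and 1.91 and 16.3 at E18.5. In the saccular group it ran from 0 through a median of 2.27 to 15.1 FPKM, in the early alveolar group from 0 through 2.29 to 21.8 and in the late group from 0 through 4.19 to 9.43. It was listed at 0 in 5 libraries (P1d, P1.5e, P7c, P10a and P19d). Across birth the log2 fold change was -2.38 (SE 0.85), and the gene missed the threshold (limma adjusted p 0.0522). It passed in 7 of 12 alternative settings and in 7 of the 29 fits with 1 library left out, with -3.26 (adjusted p 0.0121) without E18.5-4. Without the libraries against their sex label, where E16.5 alone stands for the prenatal group, it was -4.84 (adjusted p 0.00471).

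The level of Ankrd1 went with heart muscle RNA in the same libraries. The 8 heart muscle markers summed to 1329 and 2617 FPKM in the E16.5 animals, 639 in P5b and 588 in P0.5e, and these 4 libraries held 4 of the 5 highest Ankrd1 values. The other of the 5 was E18.5-3, with 16.3 FPKM of Ankrd1 and a marker sum of 140. The medians of the marker sum were 735, 118, 51.7 and 39.7 in the 4 groups in order of age. Actc1, 1 of the 8 markers, stood at 757 and 1377 FPKM at E16.5 and at 24.0 in E18.5-4. Over 29 libraries r of Ankrd1 with the sum was 0.683 and rho 0.510 (permutation tests, p 4e-05 and 0.00505, adjusted p 0.000867 and 0.0469), r without the E16.5 animals was 0.481, and r in the 25 postnatal libraries was 0.461 (adjusted p 0.118). The sum of 4 skeletal muscle markers was also highest in the E16.5 animals, at 45.2 and 93.2 FPKM, and at most 11.1 elsewhere, in P0.5e. The part of heart or skeletal muscle RNA in the Ankrd1 values was not tested.

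Lats2, the kinase that is also a Yap target, climbed through most of the series. It was 14.6 and 26.1 FPKM at E16.5 and 17.3 and 37.6 at E18.5. It then ran from 36.4 through a median of 48.1 to 59.7 FPKM in the saccular group, from 43.9 through 49.8 to 63.3 in the early alveolar group and from 46.8 through 64.0 to 70.8 in the late alveolar group. Before and after birth only E18.5-3 lay above the lowest saccular animal. The log2 fold change across birth was 1.03 (SE 0.18, limma adjusted p 0.000186), and this call held in each of the 12 other settings and in each of the 29 fits with a library left out. The later steps, 0.11 and 0.27 on the log2 scale, did not pass (adjusted p 0.830 and 0.240). Its test for any change with age had the smallest p of the 10 genes (limma F test, p 2.83e-08).

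The sum of 6 endothelial markers rose over the same ages, from a prenatal median of 485 FPKM through 787 and 845 to 1153 in the late alveolar group. Over the 29 libraries Lats2 went with it at r of 0.793 and rho of 0.722 (permutation tests, p 5e-05 and 3e-05, adjusted p 0.000867 and 0.00293), and r was 0.590 without the E16.5 animals. In the 25 postnatal libraries r was 0.565 (adjusted p 0.0414) and rho 0.596 (adjusted p 0.0448). The gene most like Lats2 over the 29 libraries was Epas1, a transcription factor of the hypoxia response that is abundant in lung endothelium, with r of 0.899. The part of endothelial RNA in the rise of Lats2 was not tested. Lats1, the other kinase of the pair, kept a mean of 34.0 FPKM before birth and 33.5 and 34.0 in the next 2 groups, and fell by 0.33 on the log2 scale in the late alveolar group (SE 0.10, limma adjusted p 0.0317).

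**Figure D3:**
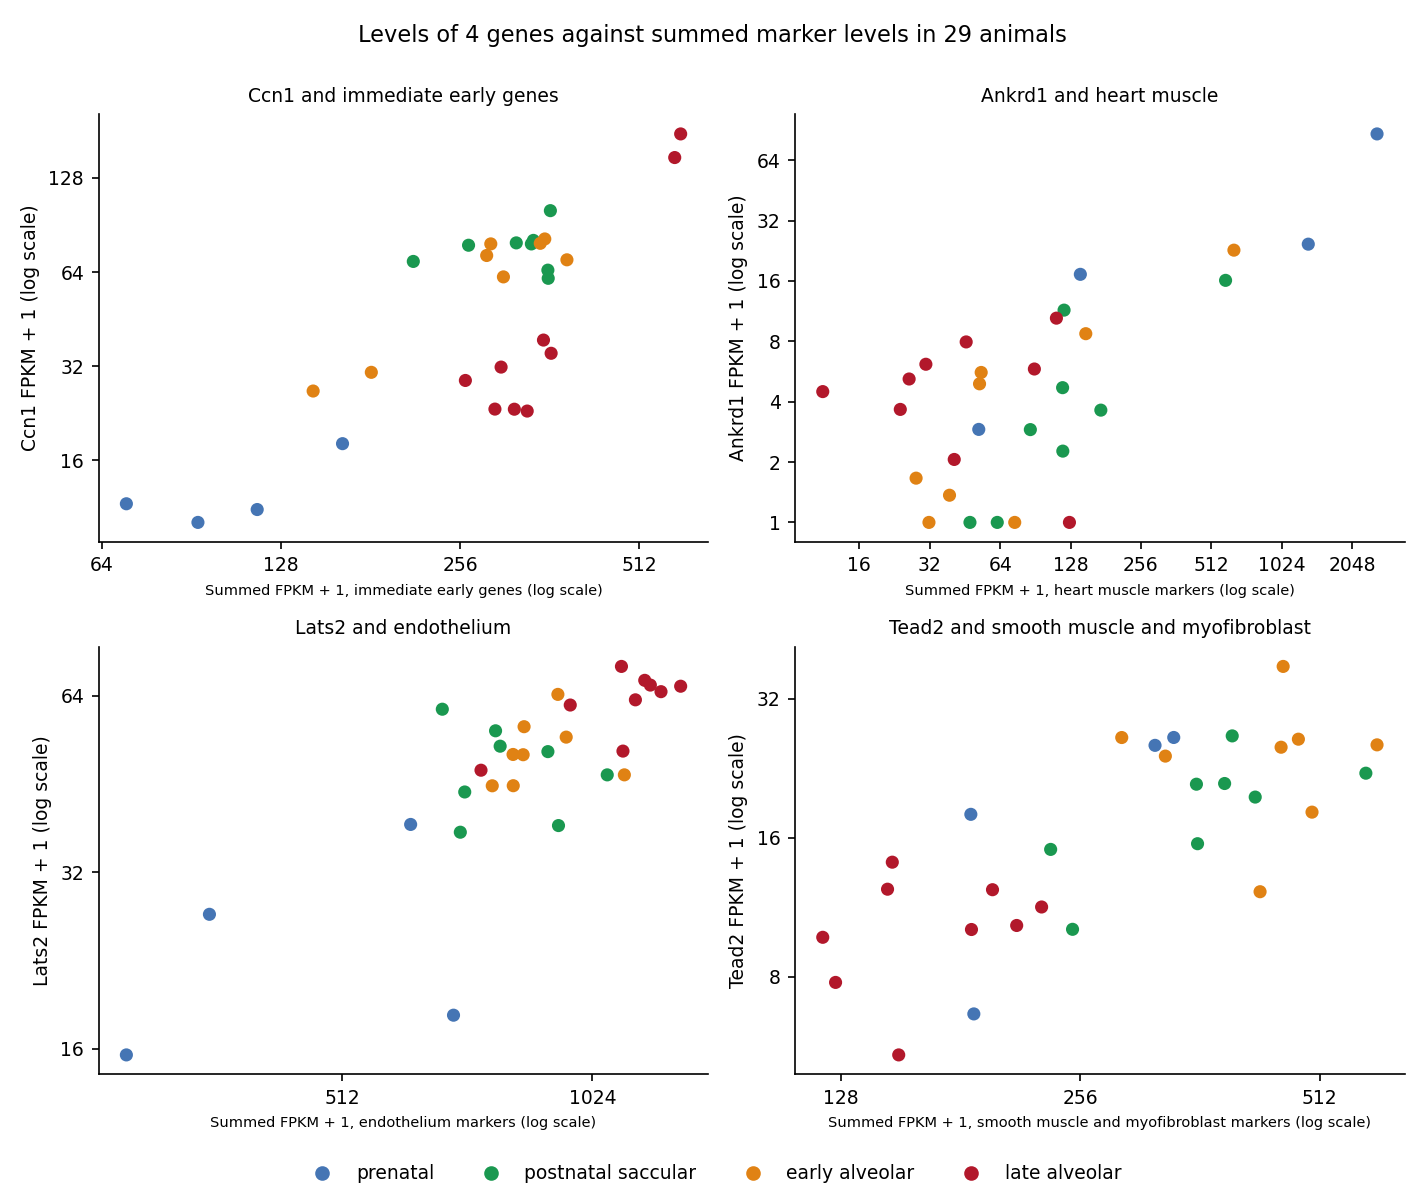
Level of Ccn1, Ankrd1, Lats2 and Tead2 (y axes, FPKM + 1) against the summed FPKM + 1 of a marker list (x axes), all on log scales, with 1 point per animal coloured by stage group. The P13.5 animals lie at the top right for Ccn1 with early gene sums of 600 and 587, and the E16.5 animals at the top right for Ankrd1 with heart muscle sums of 1329 and 2617.

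The coactivators did not pass the test in any of the 3 comparisons of stage groups. Over the 29 libraries the coefficient of variation was 22.6% for Yap1, the lowest of the 10 genes, and 27.2% for Wwtr1, next to 23.2% for Tead1, 28.5% for Lats2, 69.1% for Ccn1 and 196% for Ankrd1, the highest. Yap1 had 34.0 and 32.1 FPKM at E16.5 and 35.8 and 24.7 at E18.5, then a median of 22.3 (18.9 to 26.9) in the saccular group, 21.4 (18.0 to 25.0) in the early and 24.1 (15.4 to 36.0) in the late alveolar group. Its value across birth, -0.45 on the log2 scale (SE 0.17), missed the threshold (limma adjusted p 0.0734). It passed without P10a, P19d and P19f (adjusted p 0.0350) and with median ratio scaling (0.0499), and 3 of the 4 prenatal animals lay above every saccular animal.

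Wwtr1, which encodes Taz, was the more abundant of the pair in every library, with a mean ratio of Wwtr1 to Yap1 FPKM of 2.26, 2.83, 2.61 and 2.58 in the 4 groups. It rose within the prenatal group, over the step at which the cell marker sums moved as given for Ccn2, from 41.7 and 41.0 FPKM at E16.5 to 119 and 79.5 at E18.5 (log2 fold change 1.22, SE 0.27, limma adjusted p 0.0105). This call was lost when E16.5-9, E16.5-2 or E18.5-4 was left out (adjusted p 0.0550, 0.0938 and 0.194). From birth on it ran from 38.4 to 83.9 FPKM, with medians of 64.1, 55.9 and 51.8, and no later step passed the test. Across birth its log2 fold change was -0.01 (adjusted p 0.985). That value took the E16.5 and E18.5 animals together, and without the libraries against their sex label, which removed both E18.5 animals, it was 0.77 (adjusted p 0.0169).

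Tead1 was the most abundant of the Tead genes, with a mean share of 51.9%, 52.9%, 47.7% and 51.5% of the summed Tead FPKM in the 4 groups. It had 38.7, 36.0, 27.2 and 45.0 FPKM in the 4 prenatal animals and ran from 47.5 through 51.5 to 57.6 in the saccular group, above every prenatal animal. The log2 fold change was 0.50 (SE 0.17, limma adjusted p 0.0392). The call was lost without 8 of the 29 libraries in turn (E16.5-9, E16.5-2, E18.5-4 and 5 saccular animals). Median ratio scaling gave an adjusted p of 0.0515 and the fit without libraries against their sex label 0.287. Later levels were lower, with medians of 45.2 and 30.8 FPKM, and the late alveolar step of -0.38 (SE 0.13) had an adjusted p of 0.0639, or 0.0105 without P10f.

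Tead2 took a different course from Tead1. It had 24.4 and 25.4 FPKM at E16.5 and 5.66 and 17.0 at E18.5, then ran from 9.14 through 19.2 to 25.6 in the saccular group and from 11.2 through 24.3 to 36.6 in the early alveolar group. From P13.5 on all 9 animals had 4.43 to 13.2 FPKM, with a median of 9.34, and only P4e of the early alveolar animals fell in that range. Tead2 was the 1 gene of the 10 called lower in the late alveolar group, by -1.21 on the log2 scale (SE 0.25, limma adjusted p 0.00129), and 0 were called higher. Of all genes 7.47% were called lower and 3.89% higher, and 4 of the 10 genes had an unadjusted p under 0.05. The Tead2 call held in each of the 14 other settings and without any 1 library. Its mean share of the Tead sum went from 25.8% to 14.8%.

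The smooth muscle and myofibroblast markers fell over the same ages, from a median sum of 458 FPKM (288 to 603) in the early to 150 (120 to 228) in the late alveolar group, and the mesenchymal markers from a median of 594 to 416. Over the 29 libraries Tead2 went with the smooth muscle sum at r of 0.752 and rho of 0.703 (permutation tests, p 1e-05 and 5e-05, adjusted p 0.000433 and 0.00293). Without P19f and P23e, farthest from the median, r was 0.713, and in the 25 postnatal libraries it was 0.784 (adjusted p 0.00260). The gene nearest to Tead2 in its pattern was Igfbp4, with r of 0.812, followed by Smo, the signal transducer of the Hedgehog pathway, with r of 0.798. The part of smooth muscle and mesenchymal RNA in the Tead2 values was not tested. Of the 130 relations, 39 had an adjusted p under 0.05 by r over the 29 libraries and 13 by both r and rho. These tests did not take age out, and the 4 relations given in full were chosen after the values were seen.

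Tead3 and Tead4 were the scarcer Tead genes. Tead3 had 6.45, 20.8, 12.7 and 8.14 FPKM in the prenatal animals and ran from 15.0 through 17.2 to 25.6 in the saccular group (log2 fold change 0.67, SE 0.23, limma adjusted p 0.0475). This call was lost in 6 of the 12 other settings and without 19 of the 29 libraries in turn, with adjusted p from 0.00615 to 0.420 over all of them. Its medians then went to 12.8 and 9.502 FPKM, and the late alveolar step of -0.55 missed the threshold (adjusted p 0.0512).

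Tead4 had 2.55, 4.02, 2.34 and 11.2 FPKM before birth and ran from 4.75 through 10.7 to 14.3 in the saccular group (log2 fold change 1.04, SE 0.32, limma adjusted p 0.0245). The call was lost without E16.5-9, E16.5-2 or E18.5-4 (adjusted p 0.124, 0.0643 and 0.117). Its medians stayed at 10.8 and 12.1 FPKM in the alveolar groups, and its highest values, 21.3 and 20.3, were those of P13.5d and P19f. As the summed Tead FPKM went from a mean of 97.9 in the saccular to 64.1 in the late alveolar group, the mean share of Tead4 went from 10.2% to 19.7%. The rank of likeness set Lats2 among the 9 genes nearest to Tead4 of 8995 ranked, with r of 0.762.

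**Figure D4:**
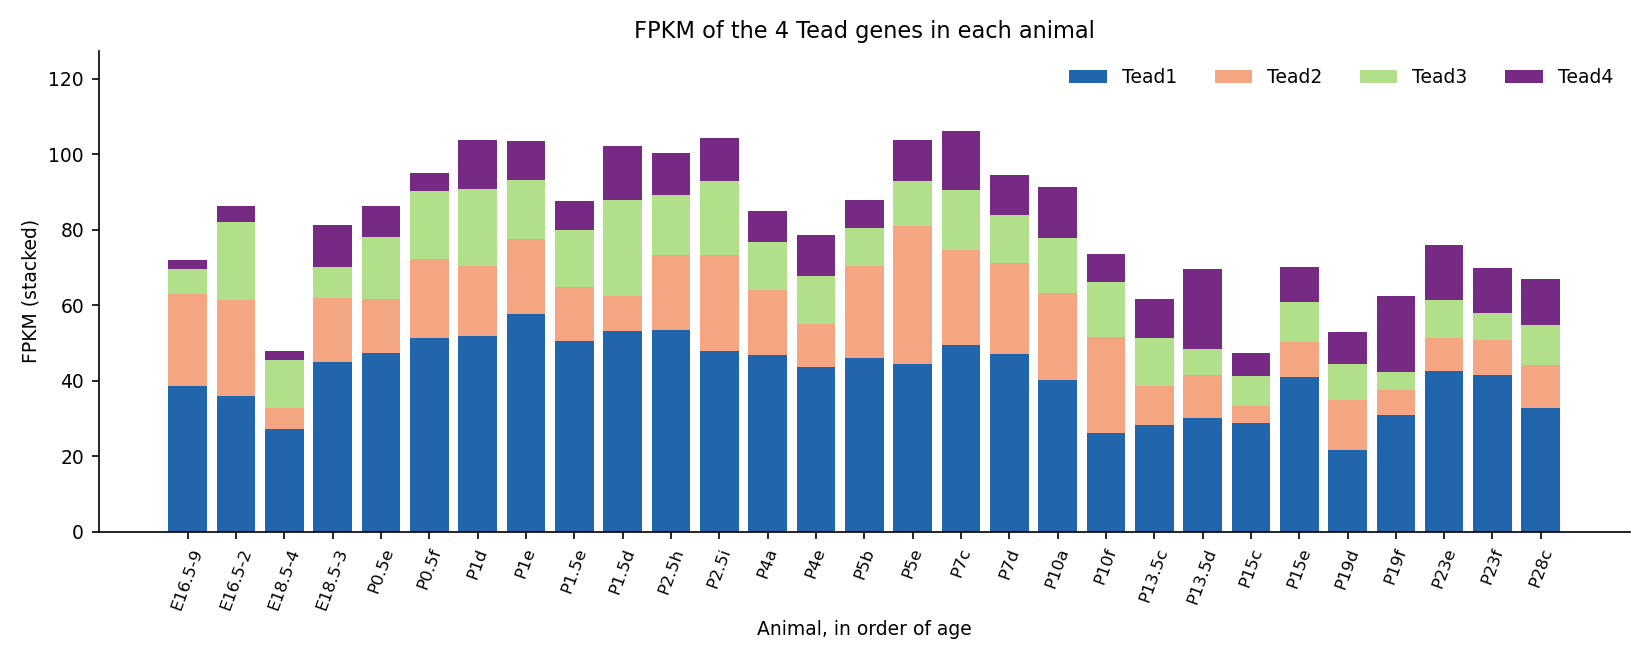
FPKM of Tead1, Tead2, Tead3 and Tead4, stacked, in each of the 29 animals in order of age (x axis). Tead1 is the largest block in each of the 29 bars, the summed height averages 97.9 FPKM in the saccular and 64.1 in the late alveolar group, and the Tead2 block shrinks from P13.5 on.

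Between the postnatal saccular and the early alveolar group none of the 10 genes passed limma's test, in either direction, where 0.527% of all genes were called higher and 0.937% lower. At an unadjusted p under 0.05 there were 2, Tead1 and Tead3, both with lower values. In the test for any change with age, a spline over the 15 ages, 7 of the 10 genes were called (Tead1, Tead3, Tead4, Ccn1, Ccn2, Ankrd1 and Lats2), where 30.7% of all genes were. In the 25 postnatal libraries alone the age test lost Tead4 (limma adjusted p 0.641), Ccn2 (0.0695) and Ankrd1 (0.804) and gained Tead2 (0.00737). It called 2193 of 14349 genes there. Without the libraries against their sex label 4 of the 10 genes were called, where calls over all genes also fell, to 2475 of 13803. With 1 library left out in turn 5 to 9 of the 10 were called. The call of Ankrd1 (adjusted p 0.0414) was lost without any 1 of 8 libraries (E16.5-9, E16.5-2, E18.5-3, P0.5e, P4a, P7c, P10a and P10f, with adjusted p from 0.0507 to 0.349), with a pseudocount of 0.1 (0.169) and with no filter on low values (0.0583). That of Tead4 was lost without E16.5-9 (0.0646).

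The 2 animals of an age also differ, and these differences were used to ask whether genes move together apart from age. Over the 14 ages with 2 animals, the within-age differences of the 45 pairs of the 10 genes gave 23 positive correlations. An exact sign-flip test called 0 of the 45 after adjustment (smallest adjusted p 0.622) and 0 at an unadjusted p under 0.05. Even the highest r, 0.718 for Tead1 and Tead4, had an exact p of 0.0760. With 14 differences a gene, the 0 calls do not show that no pair moves together. The 3 smallest exact p were 0.0658 for Yap1 and Ccn1, which differed in the same direction at 5 of 14 ages (r of -0.516 through the origin), 0.0704 for Yap1 and Wwtr1, at 11 of 14 (r of 0.536), and 0.0717 for Tead3 and Ccn1, at 5 of 14 (r of -0.412).

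The upstream part of the pathway was read from lists of its other genes. In the kinase core of 7 genes only Lats2 was called across birth. Across birth 9.11% of all genes were called higher and 6.81% lower. Of 20 upstream regulators 8 were higher and 0 lower, with a median log2 fold change of 0.48 against -0.004 over all genes. They were Taok3 (1.46) and Taok2 (0.88), kinases that activate Stk3 and Stk4, Mink1 (1.45), a kinase that can phosphorylate Lats proteins, the scaffolds Nf2 (0.85), Wwc1 (1.31) and Wwc2 (0.79), Rassf1 (1.28), which binds Stk3 and Stk4, and Amotl2 (1.11), which holds Yap at cell junctions. In the late alveolar group 4 of the 20 were lower and 1 was higher, where 7.47% of all genes were lower and 3.89% higher. The lower ones were the protocadherin Fat4 (-0.89) and its ligand Dchs1 (-1.14) and the LIM proteins Limd1 (-0.64) and Ajuba (-0.76). The higher one was Wwc1 (0.69).

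Stretch channels and the serum response factor Srf with its partners gave 5 of 10 genes higher across birth and 0 lower. Of all genes 9.11% were higher and 6.81% lower. Piezo1, a cation channel opened by membrane stretch, went from a mean of 15.1 ± 4.86 FPKM (SD, n = 4) before birth to 34.5 ± 6.09 (SD, n = 8) in the saccular group, a log2 fold change of 1.17 (SE 0.17). It was the 1 gene of this list called between E18.5 and P0.5 (log2 fold change 1.19, limma adjusted p 0.0236). The others were Zyx (0.90), a focal adhesion protein, Pkd2 (0.59), Srf (1.06) and Piezo2 (0.58). Flna, an actin crosslinker, was the 1 gene of the list called in the late alveolar group (-0.68), where 7.47% of all genes were lower.

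Of 17 tested Yap and Taz targets known from human cell lines, 3 were higher across birth (Amotl2, Foxf2 at 1.09 and Arhgef17 at 0.69) and 1 lower (Tgfb2 at -0.47). Of all genes 9.11% were higher and 6.81% lower. The median log2 fold change of the 17 was 0.41, against -0.004 over all genes. In the late alveolar group 2 were higher, Igfbp3 (2.02) and Nt5e (1.00), and 4 lower, Tgfb2 (-1.36), Foxf2 (-1.08), Ccdc80 (-1.02) and Rbms3 (-0.58). There, 3.89% of all genes were higher and 7.47% lower. Tgfb2, a growth factor, was also the 1 gene of the list called between the saccular and early alveolar groups (0.57). Of the other Tead cofactors, 3 of 5 were tested, and Ncoa3, a coactivator, was called higher across birth (0.45) and in the late alveolar group (0.52).

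The genes whose pattern over the 29 libraries was most like that of a member, among 8995 genes with a mean of at least 5 FPKM, differed from gene to gene. Nr4a1, an immediate early nuclear receptor, was nearest to Ccn1 with r of 0.903. Pnpla2, a triglyceride lipase, and Thbd, the endothelial receptor of thrombin, were nearest to Ccn2 with r of 0.895 and 0.884. Dcn, a matrix proteoglycan, and Trim55, a muscle sarcomere protein, were nearest to Ankrd1 with r of 0.786 and 0.747. For Yap1 it was Slc39a9 (0.811), for Wwtr1 Tspan2 (0.797), for Tead1 Gsk3b (0.759), for Tead3 Fndc3b (0.732) and for Tead4 Cdc42bpb (0.799). No member was among the 2 nearest of another, and r between Yap1 and Wwtr1 was 0.136. These values describe 29 libraries that share their ages, and are given with no test.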

How the data were processed

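Total RNA of microdissected septa was depleted of ribosomal RNA, made into stranded libraries and read on an Illumina HiSeq. By the submitters' notes the authors aligned reads to mm10 with STAR 2.5.1 and made FPKM with Cufflinks 2.2.1, and these FPKM were deposited. The annotation and settings are not given in the sources used here, and depth is unknown, so precision was read from the spread between animals. Of repeated gene IDs the line of highest mean was taken. The 14616 genes that reached an FPKM of 1 in 4 or more libraries were tested on log2(FPKM + 1) in limma (version 3.58.1, under R 4.3.3), whose moderated variances followed a mean-variance trend, with Benjamini-Hochberg adjustment over all of them. Stage groups shared 1 fit of 4 groups, single ages 1 fit of 15, and the age test was an F test of a natural cubic spline (3 degrees of freedom) over the log2 of days from conception, taking birth as day 19. The tests were tested on simulated data. The letters of the pups pair no animals across ages. Gene names, coordinates and promoters came from RefSeq (GRCm38.p6). Other steps used scipy 1.17.1, numpy 2.4.6 and pandas 2.3.3 in Python 3.11.15, and figures were drawn with matplotlib 3.10.9. The 10 genes and the gene lists were chosen with earlier results of these data known. Of a list, up to 4 called genes with the smallest p in a comparison are named by rule, with any that go against the rest, and the 2 genes most like a member by Pearson's r. The further upstream regulators and stretch genes named across birth, the 4 marker relations given in full and the left-out ages P4 and P13.5 were picked with their values in view. Alternatives were other scalings, pseudocounts, filters, weights, groupings and left-out libraries.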

Additional observations from a re-analysis of the deposited data

Results flagged for a closer look

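Tead1 in P10f, at 26.2 FPKM, was the lowest of the 8 early alveolar animals, and the next lowest, P10a, had 40.2. The gap was 0.676 of the range of the group on the log2(FPKM + 1) scale, more than the largest gap that 95% of such groups of 8 would show. Of 40 sets of values looked at, 10 genes in 4 groups, this was the 1 that stood out, and chance alone gives about 1 in 20.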

How the results depend on the processing

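Across birth, the count of members called lower, 0 as reported, was 2 with median ratio scaling (4 higher, as Tead1 and Tead3 were lost) and 2 without P10a, P19d and P19f, and 1 with quantile normalization, a filter at an FPKM of 5, array quality weights, 15 age groups in the fit, or without the libraries against their sex label. These were Ankrd1 and, where there were 2, also Yap1. Wwtr1, at -0.01 across birth, was 0.77 and called without the libraries against their sex label, a fit with no E18.5 animal. The count higher, 6, was 2 with the E18.5 animals as the whole prenatal group. Over all genes 585 of 14448 were higher there, against 1332 of 14616. In the late alveolar comparison, 1 lower and 0 higher as reported, 2 were lower with a filter at an FPKM of 5, without the libraries against their sex label or without P23 and P28, 3 without P13.5 and 3 with 15 age groups (Ccn1 among them without P13.5, with 15 age groups and without the libraries against their sex label), and 1 was higher (Ccn2) with array quality weights or 15 age groups. In the fit of 15 age groups p measures the spread between animals of an age, not that between the ages of a group. The age test called 4 members, against 7, without the libraries against their sex label. Over all genes it called 2475 of 13803 there, against 4493 of 14616. With 1 library left out, the counts across birth ran from 3 to 6 higher and 0 to 2 lower, late alveolar from 1 to 3 lower, E18.5 against E16.5 from 1 to 2 higher and 0 to 1 lower, P0.5 against E18.5 from 1 to 2 higher, and the age test from 5 to 9. The saccular to early alveolar counts stayed at 0 in each setting run, and so did the count of within-age pairs. Of 2390 single-gene values under these settings, 2275 kept their side of the threshold and, if called, their direction, and 46 uncalled values changed sign. Many of the 2275 were uncalled values that stayed uncalled, so the count does not measure how steady the calls were. Across birth the Tead3 call held in 6 of 12 settings and 10 of 29 fits with 1 library left out, and those of Ccn1 and Lats2 in all. Over all genes, quantile normalization took the late alveolar calls from 568 higher and 1092 lower to 741 and 864. Steps at E18.5 could not be fitted without the libraries against their sex label, which leaves no E18.5 animal. No paired analysis was possible because the animals share no number across ages. The cause of these differences was not tested. Read depth is unknown, so what depth limits could not be judged, and 2 animals an age give little hold on a single age.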
